A study of Mus musculus with 40 samples.

Results

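Gene expression after 1 h of interferon-gamma (IFN-gamma) was compared directly with that after 1 h of thapsigargin in developing oligodendrocytes, the glial cells that form myelin. The members are 8 of the 40 bulk RNA sequencing libraries of the series: the 4 IFN-gamma and the 4 thapsigargin libraries collected at 1 h, as the labels group them. All groups used here are cells of wild-type C57BL/6 mouse pups, with an age label of 6 to 7 days. Progenitors were isolated by immunopanning from the cortex of pups of 6 days, taken through 2 passages and then kept for 12 to 14 h in differentiation before plates were given to a treatment at random. The labels call the tissue whole brain, whereas their growth protocol names the cortex. IFN-gamma was used at 200 U/ml and thapsigargin at a labelled 200 uM, and 4 libraries of untreated cells of 1 h gave the background level. The same 3 kinds of cells were also collected at 8 h. Nothing in the labels tells whether replicates came from different cultures or pups. All p-values therefore rest on the spread between libraries of a group, and that spread may be technical in part. In edgeR it was estimated over all 40 libraries of the series, not over those of 1 h alone.

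IFN-gamma is a cytokine of activated lymphocytes. Its receptor activates the kinases JAK1 and JAK2. The signal reaches GAS elements in promoters and switches on genes such as Irf1, whose product in turn binds related elements (ISRE) in a later set of genes. Thapsigargin blocks the SERCA pump, which fills the endoplasmic reticulum (ER) with calcium. Cytosolic calcium then rises and the ER store empties, which engages both calcium-driven immediate early genes and the unfolded protein response. That response is sensed by PERK, IRE1 and ATF6 and acts through the transcription factors ATF4, CHOP (gene Ddit3), XBP1 and ATF6. In oligodendrocytes both agents have been studied for their effects on ER stress and survival.

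Promoter sequences of genes described below are shown first, because several carry the binding elements of these pathways. They come from RefSeq (GRCm38.p6), and each run holds the 200 bases before the annotated start of transcription, 5′ to 3′ on the strand of the gene. Capitals mark matches to the GAS motif (TTCNNNGAA) or the ISRE core (GAAA and GAAA with NN between). Positions count back from the start of transcription to the first base of the match. Igtp (chr11:58199356-58199555, plus strand), Irgm2 (chr11:58214777-58214976, plus strand) and Tgtp2 (chr11:49064213-49064412, minus strand) encode interferon-induced GTPases. Each held a GAS match followed by an ISRE core match, at -45 and -34, at -75 and -64, and at -81 and -70. Irf1 (chr11:53769814-53770013, plus strand) held a GAS match at -90, and Irf8 (chr8:120736158-120736357, plus strand) held GAS matches at -171 and -153. Socs1 (chr16:10785537-10785736, minus strand) held a pair of overlapping ISRE core matches at -83 and -77.
Irf1: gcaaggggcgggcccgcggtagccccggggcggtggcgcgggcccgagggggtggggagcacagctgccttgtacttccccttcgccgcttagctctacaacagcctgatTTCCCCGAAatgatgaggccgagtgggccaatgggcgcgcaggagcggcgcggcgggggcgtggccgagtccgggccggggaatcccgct
Irf8: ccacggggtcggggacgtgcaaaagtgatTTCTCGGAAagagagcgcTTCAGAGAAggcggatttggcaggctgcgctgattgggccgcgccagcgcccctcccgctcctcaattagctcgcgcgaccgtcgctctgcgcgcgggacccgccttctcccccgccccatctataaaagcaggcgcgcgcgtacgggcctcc
Igtp: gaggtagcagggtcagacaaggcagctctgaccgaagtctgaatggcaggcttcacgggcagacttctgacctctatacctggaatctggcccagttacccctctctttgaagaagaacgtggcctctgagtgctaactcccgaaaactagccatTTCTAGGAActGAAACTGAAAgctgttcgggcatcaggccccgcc
Irgm2: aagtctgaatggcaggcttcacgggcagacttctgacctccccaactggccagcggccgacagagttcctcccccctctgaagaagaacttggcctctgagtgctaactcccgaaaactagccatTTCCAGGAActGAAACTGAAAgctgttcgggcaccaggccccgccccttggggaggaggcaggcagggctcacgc
Tgtp2: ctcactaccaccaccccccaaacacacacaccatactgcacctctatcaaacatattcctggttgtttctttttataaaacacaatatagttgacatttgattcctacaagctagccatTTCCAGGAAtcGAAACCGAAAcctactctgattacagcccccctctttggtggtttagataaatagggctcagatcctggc
Socs1: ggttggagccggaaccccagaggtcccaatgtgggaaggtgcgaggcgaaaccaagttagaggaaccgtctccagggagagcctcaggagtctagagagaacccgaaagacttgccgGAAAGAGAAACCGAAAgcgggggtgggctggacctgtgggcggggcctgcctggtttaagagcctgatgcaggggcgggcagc

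The next promoters belong to genes that were higher in thapsigargin. Capitals mark the ATF4-CHOP composite element (TGATGCAA) in Atf3 (chr1:191183334-191183533, minus strand), Chac1 (chr2:119351042-119351241, plus strand) and Herpud1 (chr8:94386229-94386428, plus strand), at -110, -193 and -112, each on the opposite strand. In Hspa5 (chr2:34771890-34772089, plus strand), Derl3 (chr10:75893198-75893397, plus strand) and Creld2 (chr15:88819446-88819645, plus strand) they mark the ER stress element ERSE (CCAAT and CCACG, with 9 bases between), at -65, -156 and -126, on the opposite strand in Derl3 and Creld2. Atf3 encodes a stress transcription factor and Chac1 an enzyme that degrades glutathione. Herpud1 and Derl3 act in ER-associated degradation, Hspa5 encodes the ER chaperone BiP, and Creld2 is an ER stress-inducible protein.
Atf3: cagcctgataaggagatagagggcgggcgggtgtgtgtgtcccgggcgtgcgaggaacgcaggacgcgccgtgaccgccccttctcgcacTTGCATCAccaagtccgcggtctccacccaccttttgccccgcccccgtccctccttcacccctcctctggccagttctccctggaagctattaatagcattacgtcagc
Chac1: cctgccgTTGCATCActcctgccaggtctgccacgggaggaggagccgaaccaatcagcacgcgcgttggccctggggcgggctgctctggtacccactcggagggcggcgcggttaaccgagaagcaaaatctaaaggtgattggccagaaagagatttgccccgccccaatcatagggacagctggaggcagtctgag
Herpud1: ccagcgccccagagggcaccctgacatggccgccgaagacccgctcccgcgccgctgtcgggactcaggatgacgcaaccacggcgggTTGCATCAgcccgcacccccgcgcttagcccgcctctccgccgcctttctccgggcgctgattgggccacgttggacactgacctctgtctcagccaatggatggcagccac
Hspa5: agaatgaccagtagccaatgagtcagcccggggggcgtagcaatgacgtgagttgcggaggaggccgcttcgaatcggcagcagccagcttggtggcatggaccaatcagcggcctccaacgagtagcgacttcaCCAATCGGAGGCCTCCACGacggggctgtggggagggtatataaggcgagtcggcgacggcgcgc
Derl3: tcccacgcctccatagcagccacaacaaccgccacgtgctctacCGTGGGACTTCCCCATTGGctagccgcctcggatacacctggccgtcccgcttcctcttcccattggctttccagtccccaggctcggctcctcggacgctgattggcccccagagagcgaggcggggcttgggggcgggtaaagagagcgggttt
Creld2: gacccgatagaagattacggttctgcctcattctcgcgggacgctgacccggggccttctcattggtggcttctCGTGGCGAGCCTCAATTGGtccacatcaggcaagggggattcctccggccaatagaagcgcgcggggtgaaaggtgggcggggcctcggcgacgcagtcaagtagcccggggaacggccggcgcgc

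Motifs were searched on both strands in the 250 bases before each start. Of the 15 genes with the largest excess in IFN-gamma, 13 had a promoter in the table. A GAS match was present in 5 of these genes (38.5%), and an ISRE core match in 5 (38.5%). Igtp and Irgm2 lie near each other on chromosome 11 with near-identical sequence around their matches. They are counted as separate genes in both shares. Some genes have several annotated starts: over all 27025 genes, any start counted, the shares were 8.13% and 3.46%, and over all 32851 promoters 7.02% and 2.98%. Irf1 and Irf8 each have a further start (chr11:53770273-53770472 and chr8:120738439-120738638, 200 bases) with no match to any motif searched. Of the 15 genes with the largest excess in thapsigargin, 10 had a promoter in the table. The ATF4-CHOP element was in 2 of these, against 0.918% of all genes. ERSE was in 0 of them (0.13% of all genes), and so were the CRE (TGACGTCA, 1.77%) and the CArG box (1.62%). GAS and the ISRE core were in 1 each, Per1 and Egr4. A match describes letters in this window and says nothing on binding.

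Of 15135 genes tested, 921 (6.09%) differed between the treatments at 1 h. The call required p under 0.05 in edgeR's quasi-likelihood test after Benjamini-Hochberg adjustment across every gene tested. Of these, 261 (1.72% of the genes tested) were higher in IFN-gamma and 660 (4.36%) were higher in thapsigargin. The larger differences lay on the other side: 103 genes (0.681%) were called and at least 2-fold higher in IFN-gamma, against 61 (0.403%) in thapsigargin. The 4 libraries of one group lay wholly above those of the other for 690 genes (4.56%) with IFN-gamma above and for 1096 (7.24%) with thapsigargin above. The median log2 fold change over all genes was 0.0187, with 5th and 95th percentiles of -0.428 and 0.606. Throughout, log2 fold changes are IFN-gamma minus thapsigargin with their SE, and levels are in CPM, which are read counts scaled to a common library size with TMM factors. Against untreated cells, which both comparisons share, 195 genes (1.29%) were called for IFN-gamma, 163 of them higher (1.08%) and 32 lower (0.211%). For thapsigargin 1331 (8.79%) were called, 1001 of them higher (6.61%) and 330 lower (2.18%). Lists of related genes are counted below in both directions, to be read beside the shares of all genes tested (1.72% higher in IFN-gamma, 4.36% in thapsigargin). Where a direction has 0 calls by edgeR, DESeq2 also made 0 calls except in 3 lists named with its counts, and at most 5 members had an unadjusted p under 0.05.

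**Figure D1:**
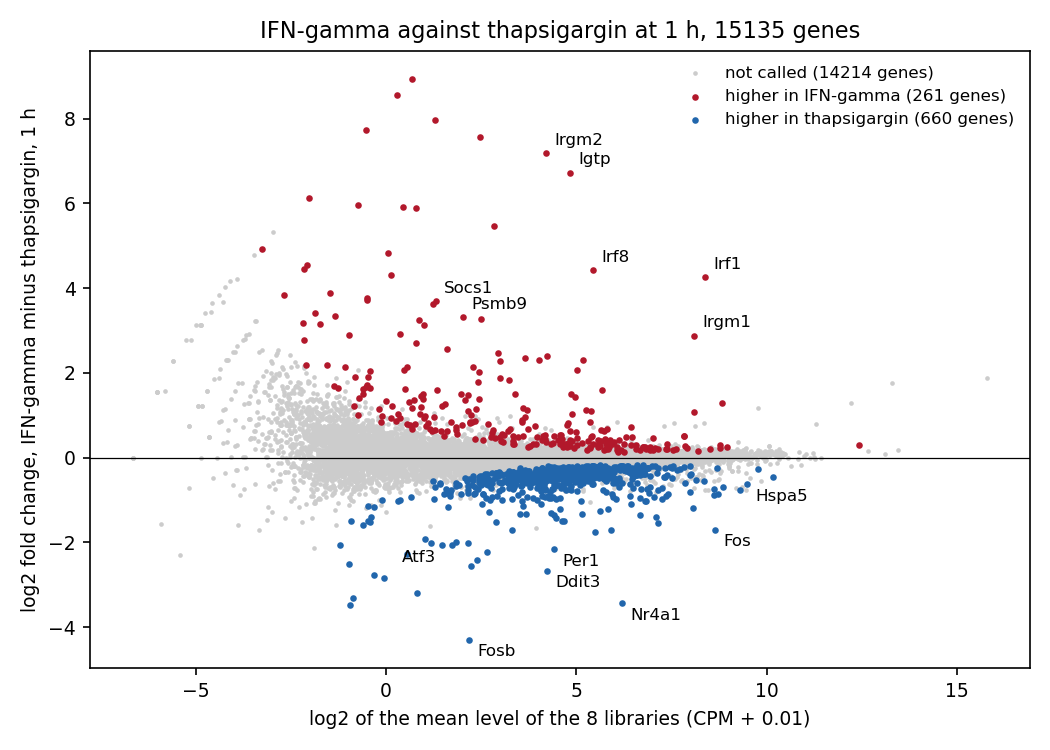
Each point is 1 of 15135 genes; the x axis is the log2 of its mean level over the 8 libraries (CPM + 0.01) and the y axis its log2 fold change, IFN-gamma minus thapsigargin. The 261 genes called higher in IFN-gamma (red) reach a fitted log2 fold change of 8.94 (Tgtp2, with 0 reads in thapsigargin, a value that depends on the prior count), and the 660 called higher in thapsigargin (blue) reach -4.30.

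The 8 libraries held 16515764 to 22419214 reads on genes. Ribosomal-RNA-like features took 28.3% of the reads of IFN-gamma replicate 2, against at most 7.40% in the other 7 libraries. IFN-gamma replicate 3 stood apart on the first principal component of the 12 libraries of 1 h (33.4, against -19.2 to 10.3). Reads of Y-linked genes (Ddx3y, Eif2s3y, Kdm5d and Uty) summed to 6.93 and 0.734 CPM in IFN-gamma replicates 2 and 3 and 29.6 CPM in thapsigargin replicate 2. The other IFN-gamma libraries held 274 and 290 CPM, so the libraries of 1 group did not all come from the same mix of animals. The other thapsigargin libraries held 212 to 316 CPM. The mix of animals thus differed in part between the compared groups, and its effect cannot be fully told apart from that of treatment. Untreated cells held 144 to 275 CPM. Of the 15 genes with the largest excess in IFN-gamma, replicate 3 was the highest IFN-gamma library for 12 and replicate 2 the lowest for 14. Without replicate 2 all 15 were still called, and so they were without replicate 3 and with the Y-linked level as a covariate. These 15 were picked from the same libraries as called, not overlapping and largest, so kept calls say little on the influence of 1 library. No pair of replicates looked like 1 library deposited again (chi-square of at least 6.04 for each degree of freedom). All 10 oligodendrocyte lineage markers were at 9.56 CPM or more in the 8 libraries and none was called. Of the microglia and macrophage markers 10 of 12 were under 1 CPM in all 8 libraries. That held for 6 of 8 fibroblast, 5 of 10 endothelial and mural, 4 of 11 neuron and 2 of 10 astrocyte markers.

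Transcription factors of the interferon pathway showed a large excess in IFN-gamma. Irf1 (ENSMUSG00000018899.16), a factor made early in the response to interferon, stood at 543, 427, 834 and 725 CPM in IFN-gamma replicates 1 to 4. In thapsigargin it stood at 35.5, 29.1, 32.3 and 35.7 CPM, and in untreated cells at 24.1 to 26.7 CPM. Every IFN-gamma library thus lay far above every other library, and the difference was 4.25 ± 0.13 (adjusted p = 1.53e-23). Irf1 was also slightly higher in thapsigargin than in untreated cells (0.38 ± 0.12, adjusted p = 0.0324), so the direct difference is smaller than that of IFN-gamma against untreated cells (4.63 ± 0.13). Irf8, a related factor best known from myeloid cells, was at 61.8, 42.8, 126 and 102 CPM in IFN-gamma. Thapsigargin libraries held 3.67 to 4.07 CPM of Irf8 and untreated ones 2.95 to 4.10 CPM, with no overlap and a difference of 4.42 ± 0.21 (adjusted p = 1.37e-17). Irf9, a DNA-binding subunit of the interferon-stimulated factor ISGF3, was at 40.2 to 81.2 CPM in IFN-gamma and at 10.7 to 13.4 CPM in thapsigargin (2.30 ± 0.12). Nlrc5, the transactivator of MHC class I genes, was at 7.68 to 21.1 CPM against 1.44 to 3 CPM (2.47 ± 0.28). In the list of interferon regulatory factors and transactivators, 5 of 11 tested members were higher in IFN-gamma, the fifth being Batf2 (2.19 ± 0.55). Batf2 had few reads, 29 in the IFN-gamma group and 6 in thapsigargin (0.250 to 0.502 against 0 to 0.184 CPM). The list median of 2.19 was the value of Batf2 itself. On the other side 1 member was called, Irf3, at 22.1 to 23.6 CPM in IFN-gamma and 26 to 28.8 CPM in thapsigargin (-0.29 ± 0.08, adjusted p = 0.0146). Without IFN-gamma replicate 3 no member of the list was called on that side by edgeR.

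Among the receptor, JAK and STAT genes, 2 of 9 were higher in IFN-gamma, and the list median was 0.109. Stat2, a signalling subunit of ISGF3, was at 34, 28.7, 54.4 and 41 CPM in IFN-gamma and at 15.4 to 25.4 CPM in thapsigargin (1.03 ± 0.14), against 12.5 to 13.8 CPM in untreated cells. Stat2 had moved under both agents: it rose over untreated cells by 1.6 ± 0.14 in IFN-gamma and by 0.57 ± 0.14 (adjusted p = 0.00893) in thapsigargin. The kinase gene Jak2 also rose over untreated cells under both, by 0.26 ± 0.06 and 0.22 ± 0.06, and its direct difference was 0.04 ± 0.06 (adjusted p = 0.836). The receptor genes did not pass the test, with Ifngr1 at 25.7 to 29.7 CPM in IFN-gamma and 25.6 to 30.3 CPM in thapsigargin.

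Feedback inhibitors of cytokine signalling differed in 5 of 13, with 4 higher in IFN-gamma and a median of -0.074. Socs1, which blocks JAK kinases, was at 3.57, 2.50, 5.61 and 6.67 CPM in IFN-gamma and at 0.161 to 0.505 CPM in thapsigargin (3.69 ± 0.44, adjusted p = 1.40e-07). Cish stood at 9.12 to 15 CPM against 3.05 to 3.69 CPM (1.88 ± 0.14). Socs3 was at 511 to 742 CPM in IFN-gamma, 217 to 282 CPM in thapsigargin and 239 to 426 CPM in untreated cells, whose range overlapped that of thapsigargin (1.30 ± 0.16). Socs2 (0.88 ± 0.20) was higher in IFN-gamma as well. Socs7 was slightly higher in thapsigargin (-0.22 ± 0.05).

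The interferon-inducible GTPases of the GBP and IRG families, which attack the vacuoles of intracellular pathogens, had the highest median of the 31 gene lists. Of 22 tested, 13 were higher in IFN-gamma and 0 in thapsigargin, with a median of 2.83, also with the members of 0 reads at their bound. Igtp was at 34.9, 21.9, 111 and 59.2 CPM in IFN-gamma, at 0.339 to 0.689 CPM in thapsigargin and at 0.300 to 0.362 CPM in untreated cells (6.72 ± 0.36, adjusted p = 2.23e-16). Irgm2 stood at 27.4, 16.2, 64.3 and 39.4 CPM against 0.184 to 0.321 CPM (7.19 ± 0.39). In both genes replicate 3 was the highest and replicate 2 the lowest library, and both were still far above every thapsigargin library. Irgm1 stood at 299 to 738 CPM in IFN-gamma, at 59.9 to 74.8 CPM in thapsigargin and at 66.2 to 70.7 CPM in untreated cells (2.88 ± 0.18). Gbp3 was at 16.7 to 48.0 CPM against 5.2 to 7.12 CPM (2.40 ± 0.20), and Gbp2 at 0.603 to 9.37 CPM against 0 to 0.107 CPM (5.90 ± 0.76). Iigp1 had reads in 1 thapsigargin library only (0.0535 CPM), against 2.56 to 9.07 CPM in IFN-gamma.

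Tgtp2 had 0 reads in all 4 thapsigargin libraries and 1.41, 1.25, 6.56 and 3.57 CPM in IFN-gamma, so it was at least 87.8-fold higher, taking 3 reads over the thapsigargin group as the floor. In all, 5 called genes had 0 reads in thapsigargin. The others were Gm12185 (at least 66.8-fold), BC023105 (at least 37.1-fold), Gm5970 (at least 11.8-fold) and Gm4841 (at least 5.06-fold), named after their values were seen. IFN-gamma replicate 3 held much of these reads: without it the bound was 52.5-fold for Tgtp2, 39.4-fold for Gm12185, 22.4-fold for BC023105, 12.1-fold for Gm5970 and 3.89-fold for Gm4841, an alternative added after the values were seen. These bounds cover counting error only. GBP and IRG genes form multigene families with near-identical copies, such as Tgtp1 and Tgtp2, so counting may split reads between copies and the values of single copies are uncertain.

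Genes of antigen processing for MHC class I differed in part, with 6 of 21 higher in IFN-gamma, 0 higher in thapsigargin and a median of 0.266. The immunoproteasome subunit Psmb9 was at 6.88, 5.06, 8.64 and 8.75 CPM in IFN-gamma and at 0.551 to 0.910 CPM in thapsigargin (3.32 ± 0.20, adjusted p = 1.06e-14). Psmb8 stood at 1.61 to 3.71 CPM against 0.321 to 0.689 CPM (2.08 ± 0.31). The peptide transporter gene Tap1 was at 31.2 to 56.5 CPM against 13.2 to 16.3 CPM (1.5 ± 0.15), and Tap2 was higher by 0.85 ± 0.18. The class I heavy chain genes named here did not pass the test: H2-K1 was at 5.09 to 10.4 CPM in IFN-gamma and 4.44 to 9.28 CPM in thapsigargin, and H2-D1 at 24.1 to 29.7 and 21.6 to 31.4 CPM. The light chain B2m was higher in IFN-gamma (0.54 ± 0.14), at 39.5 CPM in replicate 3 and 23 to 25.8 CPM in the other IFN-gamma libraries.

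Type I interferon-stimulated genes were higher in IFN-gamma in 10 of 35, with a median of 0.407, led by Parp14 (2.71 ± 0.44), Rtp4 (2.56 ± 0.30), Trim21 (2.34 ± 0.15) and Oas1b (2.13 ± 0.39). Oas1b had few reads, 59 in the IFN-gamma group and 13 in thapsigargin (0.375 to 1.08 against 0.0459 to 0.283 CPM). The 1 member on the other side was Mx2, a dynamin-like antiviral GTPase, at 3.93 to 9.05 CPM in IFN-gamma and 12.9 to 22.6 CPM in thapsigargin (-1.34 ± 0.20, adjusted p = 8.66e-06). Untreated cells held 5.52 to 8.84 CPM of Mx2, and the thapsigargin libraries lay above all of them (1.23 ± 0.20). Of the chemokine, cytokine, adhesion and checkpoint genes 5 of 11 were higher in IFN-gamma and 0 in thapsigargin (median 1.57, or 1.42 with members of 0 reads at their bound). Cxcl1, a neutrophil chemokine, was at 1.08 to 1.56 CPM against 0 to 0.214 CPM (3.73 ± 0.56). The adhesion molecule gene Icam1 stood at 1.81 to 6.91 CPM against 0.161 to 0.505 CPM (3.62 ± 0.44), and the checkpoint ligand gene Cd274 at 1.31 to 7.51 CPM against 0.267 to 0.622 CPM (3.13 ± 0.38). Csf1, a growth factor of macrophages, was at 33.3 to 60.6 CPM against 15.7 to 20 CPM (1.42 ± 0.22).

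Outside the lists, the serpin gene Serpina3f was at 4.18 to 20.1 CPM in IFN-gamma and at most 0.161 CPM in thapsigargin (7.56 ± 0.52). The transcripts named 9330175E14Rik (10.9 to 15.8 against 0.214 to 0.481 CPM, 5.46 ± 0.25) and 9530082P21Rik (6.93 to 12.9 against 0.827 to 1.47 CPM, 3.27 ± 0.21) were also higher. Tcf7, a transcription factor of Wnt signalling, was higher in IFN-gamma (1.59 ± 0.23), at 3.0 to 4.97 CPM against 1.06 to 1.41 CPM. Casp4, an inflammatory caspase, was the 1 called member of 23 apoptosis regulators (1.34 ± 0.31).

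**Figure D2:**
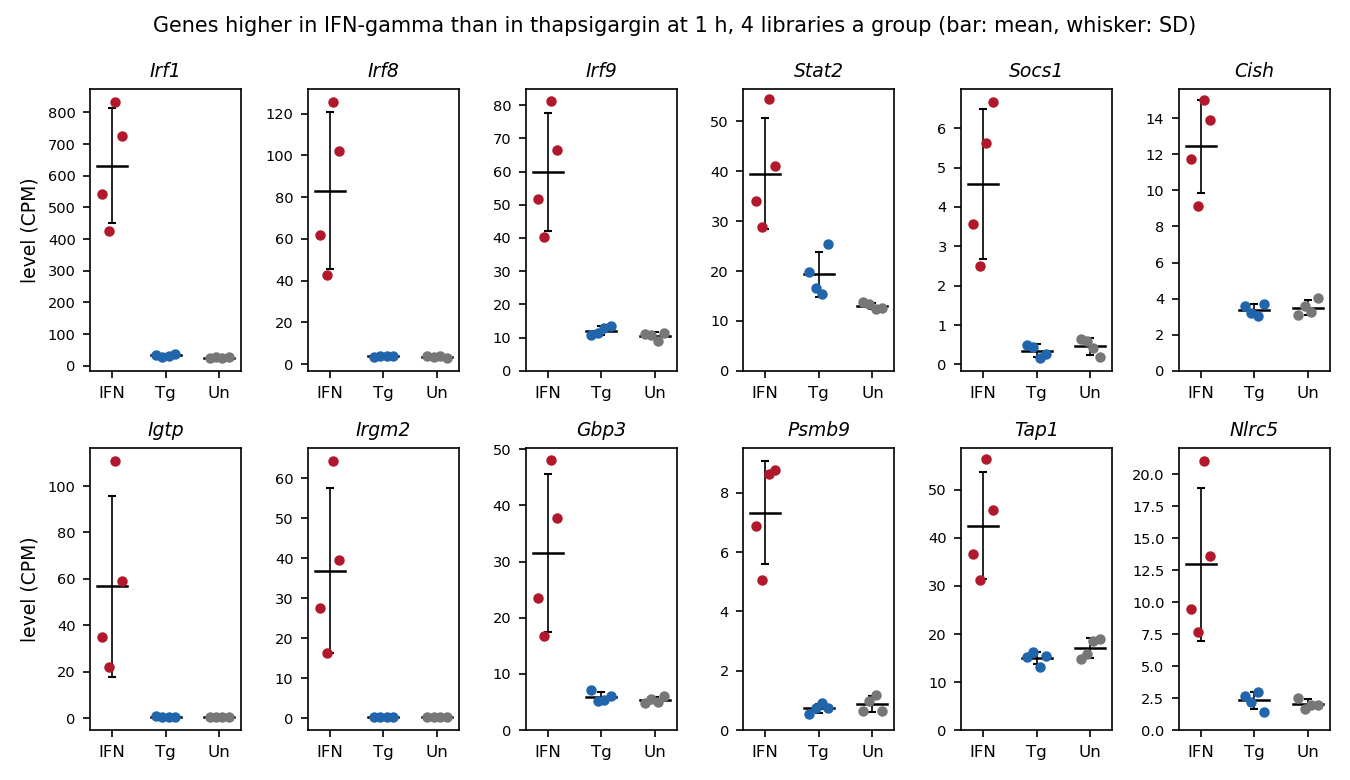
Levels (CPM, linear axes) of 12 genes in the 4 IFN-gamma (IFN), 4 thapsigargin (Tg) and 4 untreated (Un) libraries of 1 h, with the mean (bar) and SD (whisker). In each panel the lowest IFN-gamma library lies above the highest thapsigargin library, for example 427 against 35.7 CPM for Irf1.

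Immediate early genes showed the opposite excess. Fos, a subunit of the AP-1 factor, was at 479.8, 535, 809.6 and 621 CPM in thapsigargin and at 172 to 207 CPM in IFN-gamma, close to the 146 to 186 CPM of untreated cells. Its difference was -1.70 ± 0.10 (adjusted p = 1.07e-14). Fosb, another subunit, stood at 6.38, 6.96, 13 and 8.34 CPM in thapsigargin, at 0.352 to 0.518 CPM in IFN-gamma and at 0.136 to 1.17 CPM in untreated cells (-4.30 ± 0.34, adjusted p = 1.14e-11). Atf3 was at 3.80 to 7.05 CPM against 0.812 to 1.68 CPM (-2.06 ± 0.33). Junb was higher in thapsigargin too (-1.01 ± 0.30, adjusted p = 0.0373), but its groups overlapped, with 103 to 209 CPM against 41.7 to 117 CPM. The call of Junb was lost without any of IFN-gamma replicates 1, 2 and 3 or thapsigargin replicates 1 and 4. Of the 14 AP-1 genes 5 were higher in thapsigargin, Mafk (-0.54 ± 0.12) included, and 1 was higher in IFN-gamma, with a median of -0.189.

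Of the Egr, Nr4a and other immediate early genes 15 of 24 were higher in thapsigargin and 1 in IFN-gamma, with a median of -0.802. Nr4a1, an orphan nuclear receptor induced by calcium, stood at 114, 116, 150.4 and 161 CPM in thapsigargin and at 11.4 to 13.8 CPM in IFN-gamma (-3.44 ± 0.16, adjusted p = 5.63e-18). Against untreated cells (18.3 to 25.6 CPM) Nr4a1 rose by 2.66 ± 0.15 in thapsigargin and fell by 0.78 on the log2 scale in IFN-gamma (SE 0.15, adjusted p = 0.00177). Egr1, a zinc finger factor of the growth response, was at 189.8, 202, 242 and 208 CPM in thapsigargin and at 44.3 to 87.8 CPM in IFN-gamma (-1.54 ± 0.33). Arc (-2.41 ± 0.36), Egr4 (-2.06 ± 0.36) and Egr3 (-2.01 ± 0.26) followed, with 6.21 to 10.7, 1.98 to 6.79 and 6.38 to 7.86 CPM in thapsigargin. The member higher in IFN-gamma was Zfp36, which encodes the mRNA decay factor tristetraprolin, at 8.93 to 10.7 CPM against 5.41 to 8.60 CPM (0.57 ± 0.17, adjusted p = 0.0433). Zfp36 rose over untreated cells (2.34 to 3.93 CPM) under both agents, by 1.77 ± 0.19 and 1.2 ± 0.19, and its direct difference was not called when any library was left out except IFN-gamma replicate 4 and thapsigargin replicate 2.

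Genes driven by calcium and CREB overlap with that list, and 9 of 27 were higher in thapsigargin and 0 in IFN-gamma (median -0.169). Besides Nr4a1 and Nr4a2 (-1.70 ± 0.20) they included Gem, a small GTPase, at 0.735 to 2.35 CPM against 0.0502 to 0.417 CPM (-2.76 ± 0.53). Per1, a clock gene with calcium-responsive transcription, was at 33.3, 33.1, 31.4 and 40.4 CPM in thapsigargin, at 6.82 to 8.84 CPM in IFN-gamma and at 9.11 to 12.3 CPM in untreated cells (-2.15 ± 0.11, adjusted p = 5.16e-17). All IFN-gamma libraries lay below all untreated ones for Per1, a log2 fold change of -0.44 ± 0.11 (adjusted p = 0.0265). The clock list had 7 of 19 members higher in thapsigargin and 0 in IFN-gamma (median -0.295), with Ciart, a repressor of the clock, at 7.92 to 14.2 CPM against 1.96 to 2.42 CPM (-2.22 ± 0.20). Nr1d1 (-0.65 ± 0.16), another clock repressor, was at 2.44 to 3.44 CPM in IFN-gamma, 3.54 to 5.71 CPM in thapsigargin and 3.76 to 5.17 CPM in untreated cells. Nr1d1 passed the test as lower in IFN-gamma than in untreated cells, with a log2 fold change of -0.62 ± 0.16 (adjusted p = 0.0431), and it did not pass for thapsigargin. Its direct call was lost without thapsigargin replicate 2.

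Kruppel-like factors were higher in thapsigargin in 4 of 13 (median -0.327). Klf10 stood at 72.6, 60.7, 49.2 and 91.8 CPM against 18.5 to 22.1 CPM in IFN-gamma (-1.74 ± 0.19), followed by Klf11 (-1.10 ± 0.11), Klf6 (-0.97 ± 0.14) and Klf4 (-0.94 ± 0.26). Klf4 was at 19.2 to 33.3 CPM against 11.7 to 16.7 CPM, with untreated cells between at 13 to 21.4 CPM, and its call was lost without IFN-gamma replicate 1, 3 or 4 or thapsigargin replicate 1 or 4. Feedback genes of MAP kinase signalling were higher in thapsigargin in 5 of 22 (median -0.154). The phosphatase gene Dusp1 was at 27.6 to 29.9 CPM against 8.64 to 14.7 CPM (-1.31 ± 0.20), Dusp10 differed by -0.93 ± 0.14, and Spry2 stood at 269.5 to 298 CPM against 182 to 191 CPM. Dusp2 was the exception, at 1.94 to 3.33 CPM in IFN-gamma and 0.802 to 1.58 CPM in thapsigargin (1.21 ± 0.28). The anti-proliferative genes Btg2 (-1.35 ± 0.19), Tob1 (-1.33 ± 0.11) and Tob2 (-0.95 ± 0.12) were higher in thapsigargin, in a list of mRNA decay and anti-proliferative genes with 4 of 18 on that side, 1 on the other and a median of -0.193.

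Regulators of the unfolded protein response were higher in thapsigargin in 4 of 19, with 0 on the other side and a median of -0.0797. Ddit3, which encodes the stress factor CHOP, stood at 28.8, 24.0, 31.9 and 45.7 CPM in thapsigargin, at 4.25 to 5.61 CPM in IFN-gamma and at 5.30 to 5.95 CPM in untreated cells (-2.66 ± 0.15, adjusted p = 1.10e-15). Atf4 mRNA was at 395, 321, 319 and 459.5 CPM against 161 to 165 CPM in IFN-gamma (-1.20 ± 0.12, adjusted p = 2.01e-09). Xbp1 was at 106, 91.4, 105 and 142 CPM against 56.3 to 65.1 CPM (-0.91 ± 0.08), and Ppp1r15a, the phosphatase subunit that reverses the translational block, at 19.1 to 25.4 CPM against 13.6 to 15.8 CPM (-0.60 ± 0.09). For these genes the IFN-gamma libraries lay within or near the range of untreated cells and none passed the test against it. The sensor gene Ern1 (IRE1) was at 17.1 to 22.4 CPM in IFN-gamma and 17.9 to 21.2 CPM in thapsigargin, Atf6 was at 58.3 to 63.1 and 57 to 70.4 CPM, and Eif2ak3 (PERK) was at 69.3 to 78.8 and 80.4 to 86 CPM. None of these sensor genes passed the test.

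Of 35 ATF4 and CHOP targets 2 were higher in thapsigargin and 0 in IFN-gamma, and the list median was 0.0143. That count is near the 4.36% of all genes tested that were called higher in thapsigargin. The 2 were Chac1 (2.25 to 3.90 against 0.655 to 1.08 CPM, -1.91 ± 0.36) and Ddit4 (74.3 to 96.5 against 39.8 to 55.5 CPM, -0.98 ± 0.11). Ddit4, an inhibitor of mTORC1, passed the test in both directions around the untreated level of 59.5 to 71.3 CPM, at 0.43 ± 0.11 in thapsigargin and -0.54 ± 0.11 in IFN-gamma. Trib3, a pseudokinase target of ATF4 and CHOP, was at 1.45 to 2.20 CPM in thapsigargin and 3.32 to 3.87 CPM in IFN-gamma (0.94 ± 0.34, adjusted p = 0.102) and so did not pass. Asns, which encodes asparagine synthetase, overlapped between the treatments, at 87.4 to 102 CPM in IFN-gamma and 77.1 to 89.4 CPM in thapsigargin.

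Chaperone and ER-associated degradation genes of ATF6 and XBP1 were higher in thapsigargin in 9 of 33 and in IFN-gamma in 0 (median -0.0923). Hspa5 was at 830.4, 769, 847 and 1000.2 CPM in thapsigargin, at 536 to 584 CPM in IFN-gamma and at 511 to 576 CPM in untreated cells (-0.63 ± 0.07, adjusted p = 1.61e-08). Herpud1 was at 66.3, 50.8, 56.1 and 103 CPM against 27.7 to 30.3 CPM (-1.26 ± 0.13). Derl3 was at 0.643 to 1.28 CPM against 0.100 to 0.216 CPM (-2.52 ± 0.38), and Creld2 was at 38.3 to 60.5 CPM against 29.8 to 33.5 CPM (-0.56 ± 0.10). Dnajb9, a co-chaperone of BiP, was at 15.3 to 24.4 CPM in thapsigargin and 13.6 to 14.9 CPM in IFN-gamma (-0.37 ± 0.12, adjusted p = 0.0673). Without thapsigargin replicate 1 or 2 that difference was called. Dnajb9 passed the test for thapsigargin over untreated cells (0.82 ± 0.12), which held 9.31 to 11.2 CPM. Of the SERCA pumps and store calcium genes 0 of 23 passed in either direction by edgeR, 5 had an unadjusted p under 0.05 and 2 were higher in IFN-gamma by DESeq2. Atp2a2, the pump that thapsigargin blocks, stood at 371 to 393 CPM in thapsigargin and 372 to 416 CPM in IFN-gamma.

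Transcripts of Xbp1 were also counted by isoform. None of its 4 annotated transcripts has the 26-base intron that IRE1 removes joined out. Of these, 3 hold the intron and the retained-intron transcript Xbp1-202 does not cover the region, so spliced and unspliced mRNA could not be separated. The share of Xbp1 estimated counts on transcripts other than Xbp1-201 was 18.8, 21.2, 18.4 and 20.1% in thapsigargin, 9.30, 7.31, 5.01 and 6.12% in IFN-gamma and 6.22 to 9.33% in untreated cells. Thapsigargin libraries were higher than all others, and the difference of IFN-gamma from thapsigargin was -12.7 percentage points (exact permutation test, two-sided p = 0.0286, the smallest that 4 against 4 allows, adjusted p = 0.0429 over 3 comparisons). Over protein-coding transcripts alone it was -7.86 percentage points (exact permutation p = 0.0286, adjusted p = 0.0429). This share was chosen after its values were seen. Reads of the spliced form may be assigned to any of these transcripts, which was not tested.

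**Figure D3:**
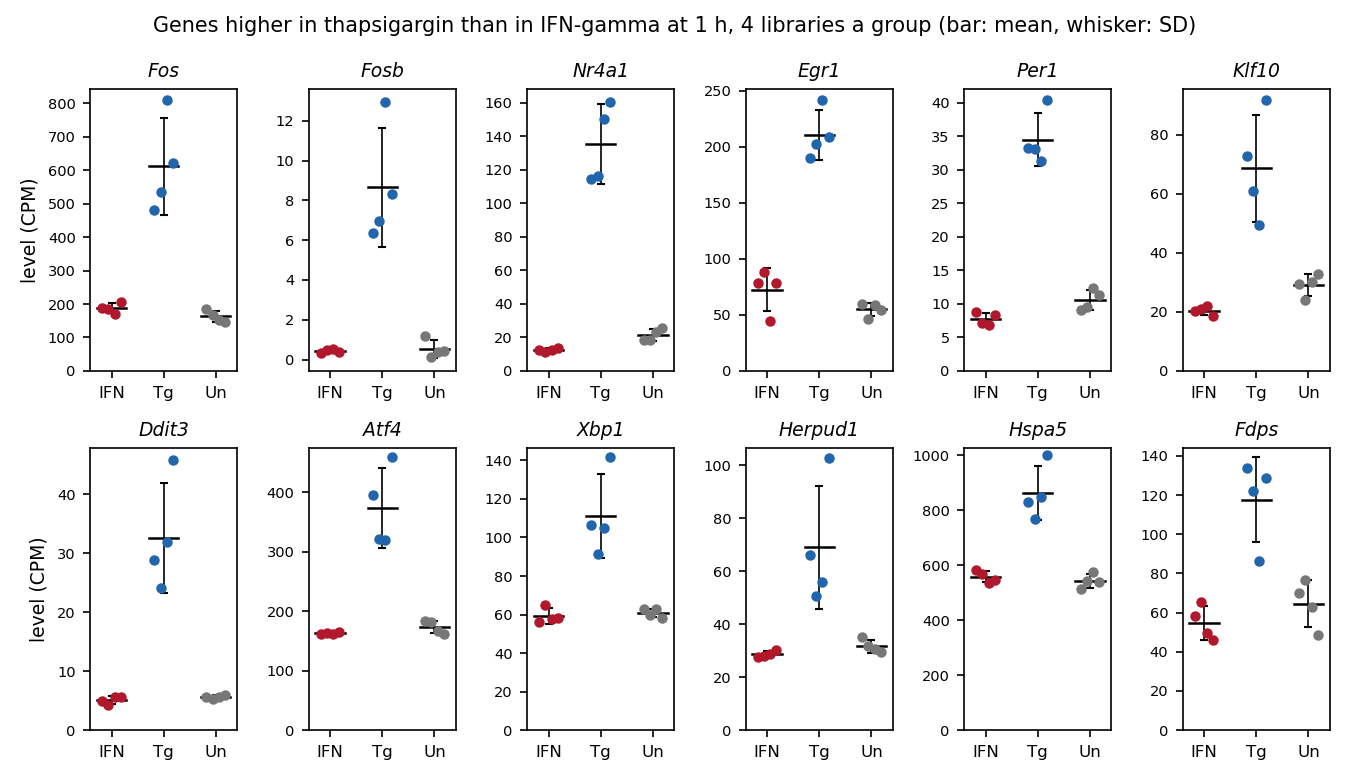
Levels (CPM, linear axes) of 12 genes in the 4 IFN-gamma (IFN), 4 thapsigargin (Tg) and 4 untreated (Un) libraries of 1 h, with the mean (bar) and SD (whisker). In each panel the lowest thapsigargin library lies above the highest IFN-gamma library, for example 24.0 against 5.61 CPM for Ddit3.

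Cholesterol synthesis genes and their SREBP regulators were higher in thapsigargin in 11 of 27 and in IFN-gamma in 0, with a median of -0.358. Fdps, an enzyme of isoprenoid synthesis, was at 134, 122, 86.1 and 129 CPM in thapsigargin, at 46.2 to 65.2 CPM in IFN-gamma and at 48.5 to 76.9 CPM in untreated cells (-1.10 ± 0.19). Sc5d was at 165 to 272 CPM against 91.1 to 143 CPM (-0.90 ± 0.16), and Insig1, the sterol-regulated anchor of SREBP, at 430.1 to 674 CPM against 259 to 388 CPM (-0.86 ± 0.17). Insig1 was highest in IFN-gamma replicate 2 (388 CPM) and the other IFN-gamma libraries held 259 to 280 CPM. The count of 11 was 6 without IFN-gamma replicate 1, IFN-gamma replicate 4 or thapsigargin replicate 4, 7 without thapsigargin replicate 1, and 0 in library numbers 1 to 20 alone.

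Notch and inhibitor of differentiation genes were higher in thapsigargin in 5 of 16 (median -0.403). They were Id3 (-1.36 ± 0.25), Hey2 (-1.27 ± 0.24), Hes1 (-1.01 ± 0.17), Dll1 (-0.86 ± 0.13) and Jag1 (-0.55 ± 0.09). Id proteins and Hes factors are known to restrain oligodendrocyte differentiation. Dll1, a Notch ligand, was at 93.7 to 135 CPM in IFN-gamma, 200.2 to 262 CPM in thapsigargin and 168 to 179 CPM in untreated cells, and it passed the test as lower in IFN-gamma than in untreated cells (-0.55 ± 0.13, adjusted p = 0.0237). Hes1 did so as well (-0.67 ± 0.17, adjusted p = 0.0291), at 4.62 to 5.93 CPM against 8.00 to 10.7 CPM, while neither passed for thapsigargin. Id1 was at 0.302 to 1.71 and 2.09 to 4.18 CPM (-1.61 ± 0.53, adjusted p = 0.0659). In library numbers 1 to 20 alone 0 of the 5 were called by edgeR.

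NF-kappaB subunits and feedback genes were higher in thapsigargin in 5 of 15 (median -0.0567) by edgeR, and 1 was higher in IFN-gamma by DESeq2. The calls were Tnfaip3 (-0.67 ± 0.20), Rel (-0.63 ± 0.18), Relb (-0.52 ± 0.15), Nfkb2 (-0.49 ± 0.15) and Birc2 (-0.28 ± 0.06). Leaving out 1 library gave 1 call (without IFN-gamma replicate 3 or thapsigargin replicate 4), 2 (without IFN-gamma replicate 1) or 3 (without IFN-gamma replicate 4 or thapsigargin replicate 1 or 2). Outside the lists, Gdnf, a neurotrophic factor, was at 3.85 to 9.35 CPM in thapsigargin and 0.687 to 2.25 CPM in IFN-gamma (-1.99 ± 0.35). The predicted genes Gm15344 (-2.56 ± 0.20) and Gm7967 (-2.02 ± 0.27) were higher in thapsigargin as well.

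By edgeR 0 of 18 progenitor genes (median 0.0318), 0 of 24 premyelinating and myelin genes (median -0.211), 0 of 25 proliferation genes (median 0.148) and 0 of 30 cytosolic ribosomal protein genes (median 0.0672) were called. DESeq2 called 1 progenitor gene higher in IFN-gamma and 0 in the other lists. At an unadjusted p under 0.05 there were 2 progenitor genes higher and 1 lower and 0 in the other lists. Pdgfra, the growth factor receptor of progenitors, was at 2399.6 to 2536 CPM in IFN-gamma and 2270 to 2516 CPM in thapsigargin (0.02 ± 0.17). Myrf, a factor of myelination, was at 40.7 to 49.6 and 41.3 to 72.5 CPM (-0.29 ± 0.30, adjusted p = 0.743), and Mbp at 27 to 67.7 and 31 to 107 CPM (-0.50 ± 0.58). Of the 19 lineage transcription factors Yy1 alone was called by edgeR (-0.18 ± 0.06, adjusted p = 0.0392), and not without any of IFN-gamma replicates 1 to 4 or thapsigargin replicates 1 and 4. The median of these factors was -0.204 and the highest value -0.00398, so every member was estimated lower in IFN-gamma. Their summed levels overlapped, at 3832 (replicate 3) to 4773 CPM in IFN-gamma and 4556 to 5146 CPM in thapsigargin. DESeq2 called 2 of these factors higher in thapsigargin, and 4 had an unadjusted p under 0.05 by edgeR on that side. Single members were called among heat shock (Dnajb4, 0.33 ± 0.08), NRF2 (Gclm, 0.27 ± 0.08) and mitochondrially encoded genes (mt-Co1, 0.31 ± 0.09), of 18, 16 and 11. The call of Dnajb4 was lost without IFN-gamma replicate 3. That of Gclm was lost without any of IFN-gamma replicates 1 to 3 or thapsigargin replicates 2 to 4, and that of mt-Co1 without IFN-gamma replicate 1 or 3 or thapsigargin replicate 1, 2 or 3.

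Markers of other cell types moved in a few cases. Tubb3, a neuronal tubulin, was at 50.1 to 77.5 CPM in IFN-gamma and 36.7 to 41.1 CPM in thapsigargin (0.65 ± 0.13), and Gad1 at 0.238 to 0.475 and 0.505 to 2.14 CPM (-1.5 ± 0.44), out of 8 neuron markers tested. Acta2 of mural cells (1.69 ± 0.44) and Lum of fibroblasts (1.64 ± 0.47) were higher in IFN-gamma, although their groups overlapped, and Acta2 was at -0.24 in the isoform table. Both calls were lost without IFN-gamma replicate 3 or thapsigargin replicate 4, that of Lum also without IFN-gamma replicate 2 or thapsigargin replicate 1 or 3. The call of Gad1 was lost without IFN-gamma replicate 1 or 4 or thapsigargin replicate 3 or 4. The summed level of the 10 endothelial and mural markers was 13.3 to 21.8 CPM in IFN-gamma and 9.05 to 14.1 CPM in thapsigargin. That of the 12 microglia and macrophage markers was 6.07 to 10.2 and 4.93 to 6.63 CPM, and that of the 11 neuron markers 853 to 1264 and 1175 to 1274 CPM. Single genes made up most of 2 of these sums. Map2 was at 761 to 1179 CPM in IFN-gamma and 1104 to 1202 CPM in thapsigargin among the neuron markers. Kdr was at 11.4 to 14.7 and 7.39 to 12.55 CPM among the endothelial and mural markers. The top of the endothelial and microglial ranges was IFN-gamma replicate 3, at 21.8 CPM against 13.3 to 14.7 CPM in the other IFN-gamma libraries and at 10.2 against 6.07 to 6.50 CPM. The same library was the highest for 12 of the 15 genes with the largest excess in IFN-gamma. The astrocyte markers summed to 339 to 418 and 305 to 385 CPM, mostly from Aldoc and Slc1a3. The fibroblast markers summed to 6.49 to 13.8 and 7.11 to 14.7 CPM. In bulk libraries fewer cells of a type and less RNA per cell cannot be told apart, and the part of these cells in the results above was not tested.

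**Figure D4:**
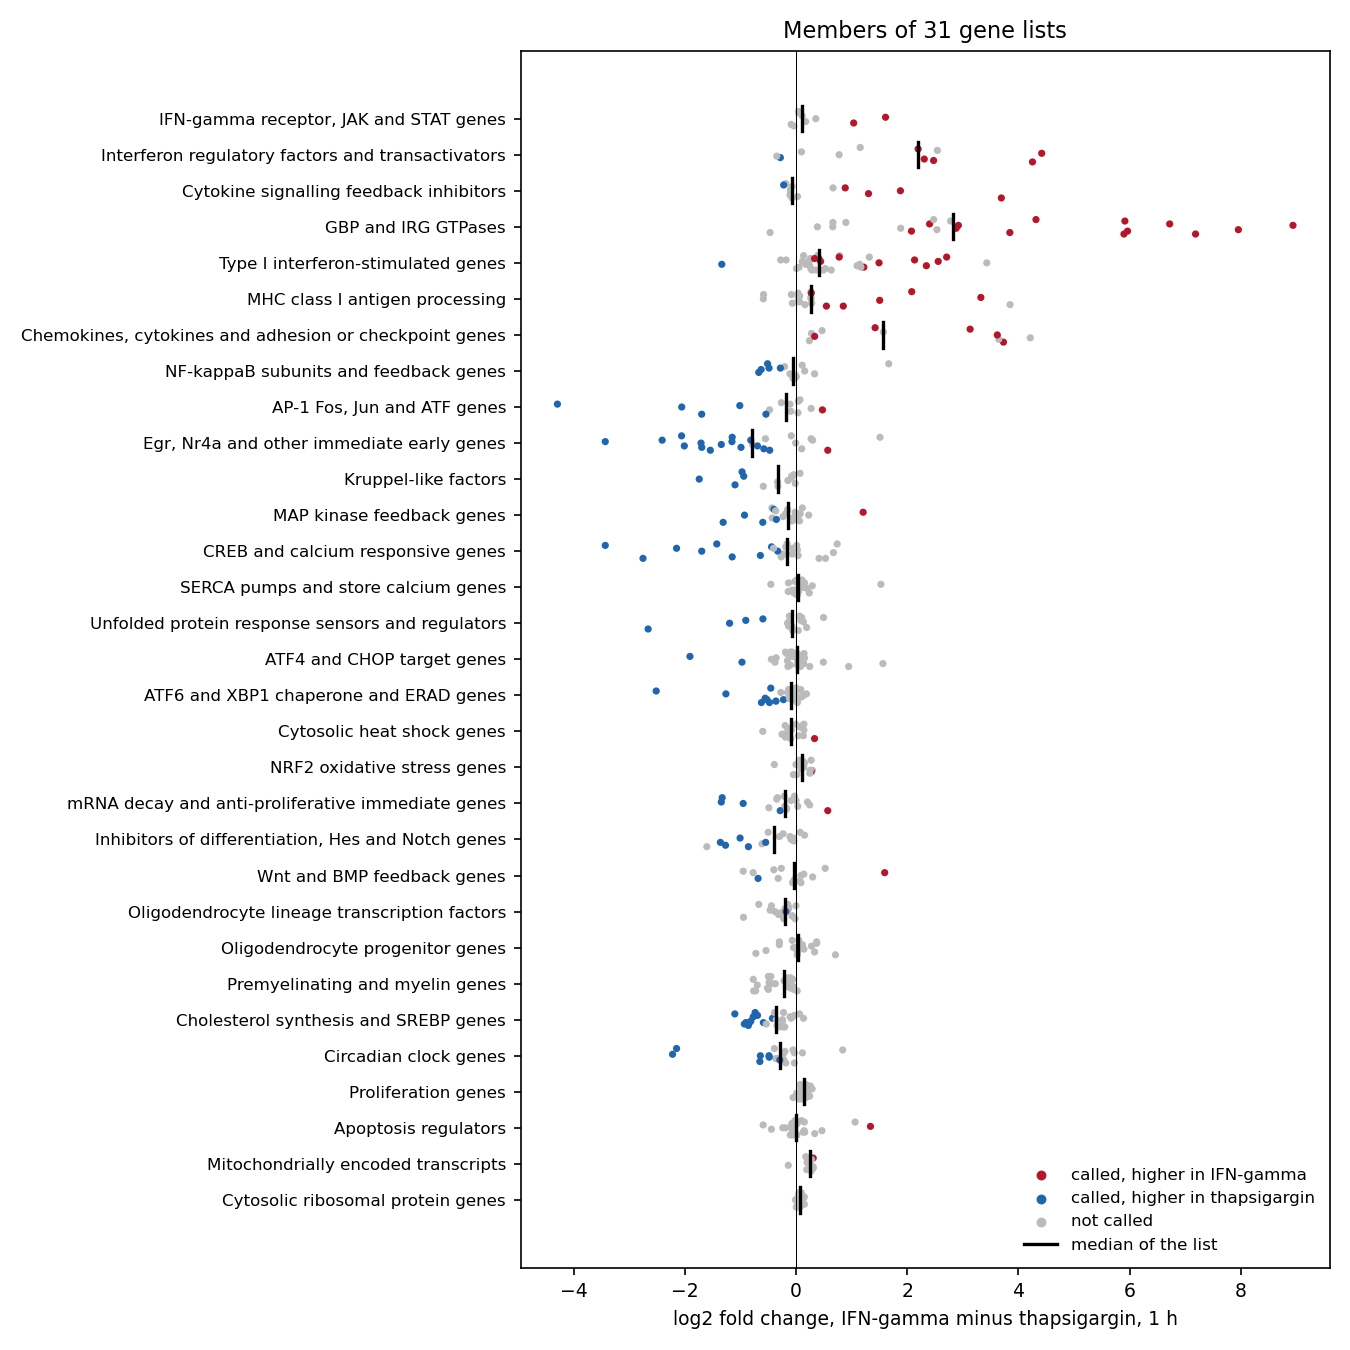
Each point is a tested member of 1 of 31 gene lists, placed by its log2 fold change (IFN-gamma minus thapsigargin, x axis), red or blue where called and grey where not; black bars are list medians. The GBP and IRG GTPases have the highest median (2.83) and the Egr, Nr4a and other immediate early genes the lowest (-0.802).

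For 14 genes of these pathways the difference between the treatments at 1 h was set against that at 8 h in the same model, and 13 passed the test of the change, as did 48.3% of all genes. The difference at 8 h itself was called for 61.4% of all genes. The model took libraries of 1 h and 8 h as independent, and whether they share cultures was not tested. The interferon genes parted further. Igtp reached 1715 ± 76.3 CPM (SD, n = 4) in IFN-gamma at 8 h and 0.140 ± 0.104 CPM in thapsigargin. Psmb9 was at 159 ± 7.77 and 0.266 ± 0.0992 CPM, and Tap1 at 466 ± 24.4 and 4.06 ± 0.820 CPM. Tap1 in thapsigargin at 8 h was thus below untreated cells of that time (13.2 to 15.5 CPM), as was Irf1 (10.4 to 12.3 against 23.8 to 26.5 CPM). The difference went from 4.25 to 6.50 ± 0.14 for Irf1 and from 1.5 to 6.85 ± 0.19 for Tap1. Socs1, Irf8 and Psmb9 differed at 8 h by 6.30 ± 0.32, 6.60 ± 0.23 and 9.14 ± 0.21.

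Unfolded protein response genes also parted further, toward thapsigargin. Trib3 turned from 0.94 ± 0.34 at 1 h, which did not pass, to -6.39 ± 0.30 at 8 h, where thapsigargin libraries held 353 to 391 CPM and IFN-gamma libraries 3.53 to 5.36 CPM. Hspa5 was at 9715 ± 404 CPM in thapsigargin at 8 h and 676 ± 16.4 CPM in IFN-gamma (-3.85 ± 0.07), Herpud1 at 1195 ± 96.1 and 34.3 ± 2.49 CPM (-5.12 ± 0.14), and Ddit3 at 559 ± 27.3 and 10.2 ± 0.786 CPM (-5.78 ± 0.16). Atf3 differed by -2.06 ± 0.33 at 1 h and by -2.50 ± 0.26 at 8 h, when thapsigargin, IFN-gamma and untreated libraries held 48.8 to 67.2, 7.19 to 13.6 and 0.357 to 0.622 CPM, and this change of -0.44 ± 0.43 did not pass (adjusted p = 0.417). The immediate early genes went the other way. Nr4a1 stood at 8.01 to 11.4 CPM in thapsigargin at 8 h and 6.62 to 8.79 CPM in IFN-gamma (-0.33 ± 0.16, adjusted p = 0.08). Fos was at 80.3 to 93.1 and 108 to 129 CPM (0.48 ± 0.10), and Egr1 at 2.19 to 4.50 and 18.5 to 22.1 CPM (2.57 ± 0.40), so for both the sign of the difference had turned. Untreated cells of 8 h held 119 to 128 CPM of Fos and 16.4 to 38.7 CPM of Egr1. For both genes all thapsigargin libraries lay below the untreated ones, whereas the IFN-gamma libraries overlapped them.

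**Figure D5:**
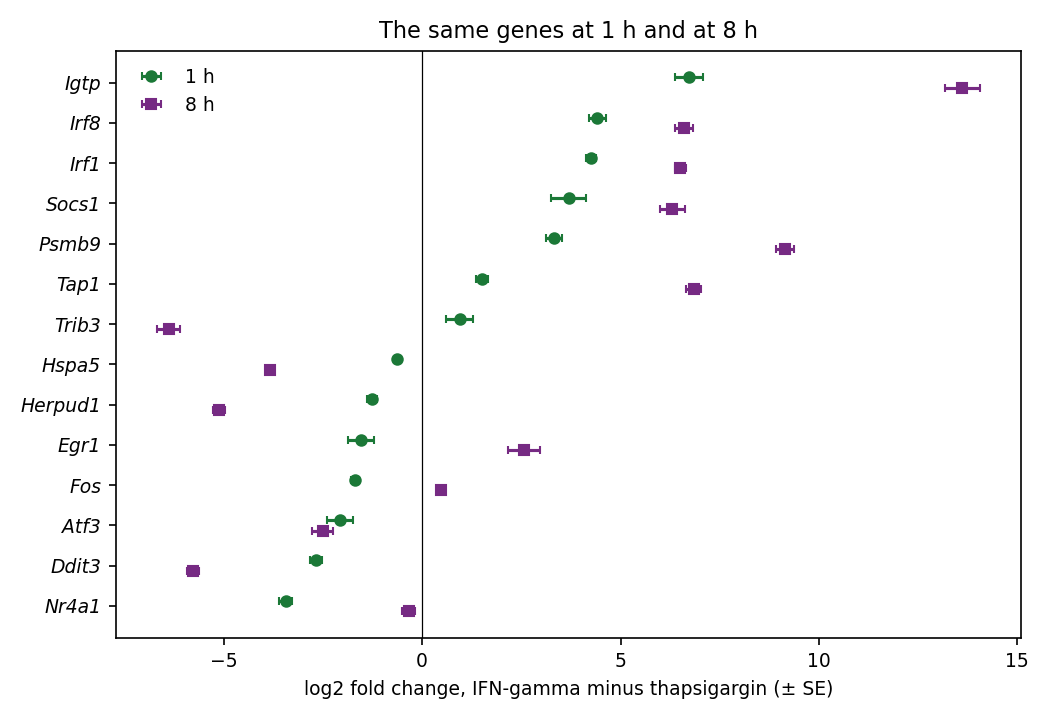
Log2 fold change, IFN-gamma minus thapsigargin (x axis, ± SE), of 14 genes at 1 h (circles) and 8 h (squares). Egr1, Fos and Trib3 lie on opposite sides of 0 at the 2 times, and Atf3 lies at -2.06 and -2.50.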

How the data were processed

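Total RNA of immunopanned mouse oligodendrocyte cultures was sequenced on an Illumina HiSeq, per the labels' protocols. The authors deposited raw read counts per gene and, in a second table, estimated counts per transcript. The submitters' processing notes name STAR, featureCounts, kallisto and edgeR without versions or roles. Genome build, annotation and strand setting were not given in the sources used here. Counts from unstranded reads cannot separate overlapping genes.

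The gene counts of all 40 libraries were fitted with edgeR 4.0.16 (R 4.3.3): a mean for each of 10 groups, TMM scaling, filterByExpr by group (15135 of 39056 gene identifiers kept) and the quasi-likelihood F test with 30 residual degrees of freedom before moderation. Fold changes were computed with a prior count of 0.125, and each SE is the fold change over the square root of F. The contrast was IFN-gamma minus thapsigargin at 1 h. Each agent against untreated cells, the difference at 8 h and its change from 1 h came from the same fit. Alternatives were DESeq2 1.42.0, other scalings and filters, fewer groups, a block or split by library number, the isoform table and leaving out each library. The test was also run on counts simulated from its own fit, with differences planted only in genes of higher counts. That run does not cover genes of low counts, shared cultures or outlying libraries.

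The comparison, the gene lists and the markers were chosen with earlier results of these data known. Lists share genes (Nr4a1, Nr4a2, Nr4a3, Per1, Nfil3, Btg2 and Zfp36 among them). Named were the 15 largest differences on each side (called, not overlapping, mean log2 CPM of at least 1), up to 4 called members of a list, members of lists with 5 or fewer calls and a set of pathway genes. Chosen after their values were seen were Asns, Atf6, B2m, Batf2, Eif2ak3, Ern1, H2-D1, H2-K1, Ifngr1, Irf3, Jak2, Mbp, the genes with 0 reads in thapsigargin and the Xbp1 share. Promoters are RefSeq sequences of GRCm38.p6. Some genes of the lists are not reported here.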

Additional observations from a re-analysis of the deposited data

Results flagged for a closer look

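For 13 of the 14 pathway genes the difference between IFN-gamma and thapsigargin at 8 h differed from that at 1 h by an edgeR quasi-likelihood test of the change itself, adjusted over all genes (4 libraries in each of the 4 groups). On the log2 scale the change was 6.89 for Igtp, 5.82 for Psmb9, 5.34 for Tap1, 2.61 for Socs1, 2.25 for Irf1 and 2.18 for Irf8. It was 4.11 for Egr1, 3.10 for Nr4a1 and 2.18 for Fos, and it was -7.33 for Trib3, -3.86 for Herpud1, -3.22 for Hspa5 and -3.11 for Ddit3.

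In 14 of 227 groups of 4 libraries examined (6.17%), 1 library lay far from the other members of its group by Dixon's criterion. Chance gives about 5% of groups, so this share is near what chance gives. Among IFN-gamma libraries these were, in replicate 2, the ribosomal-RNA-like share of reads (28.33%), Insig1 (387.6 CPM), Spry2 (190.6 CPM), Klf4 (16.68 CPM) and Ppp1r15a (15.8 CPM). In IFN-gamma replicate 3 they were Birc2 (28.93 CPM) and Psmb8 (3.713 CPM), in replicate 4 Ddit4 (55.5 CPM) and Egr3 (2.978 CPM), and in replicate 1 Pdgfra (2536 CPM). Among thapsigargin libraries they were Dll1 (262.1 CPM) and Iigp1 (0.05353 CPM) in replicate 3 and Atp2a2 (371.2 CPM) in replicate 1. Untreated replicate 4 stood out in the share of Xbp1 estimated counts on transcripts other than Xbp1-201 (9.332%).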

How the results depend on the processing

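The count of 921 called genes lay between 686 and 1024 under the other settings run, except in library numbers 1 to 20 alone. That setting gave 194 called genes (69 higher in IFN-gamma and 125 higher in thapsigargin), whereas library numbers 21 to 40 alone gave 779. Both leave 2 libraries in each group, and the reason for this gap was not tested. Leaving out 1 library of the 2 groups gave 692 to 882 calls, of which 191 to 252 were higher in IFN-gamma and 493 to 649 in thapsigargin. No paired analysis was possible because the labels give no replicate numbers shared between groups. A block for library numbers 1 to 20 and 21 to 40, which is no pairing of replicates, gave 998 calls and changed the call of none of the 107 named genes. Of these, 106 kept direction and call with DESeq2, 89 with the isoform table, 58 in library numbers 1 to 20 and 92 in library numbers 21 to 40. All 15 genes with the largest excess in IFN-gamma stayed called under every setting run on the direct comparison. Of the 15 with the largest excess in thapsigargin, 13 stayed called in library numbers 1 to 20, 14 with the isoform table and all under the other settings. Both sets were picked as called and not overlapping in the same libraries. Some differences that were not called changed sign. Atp2a2 moved to -0.029 (isoform table), -0.0689 (numbers 21 to 40) and between -0.005866 and 0.04785 with 1 library left out. Pdgfra moved to -0.03801 and -0.03097 with the same tables and between -0.00683 and 0.04242. Acta2, called in the gene table, was at -0.2368 in the isoform table. The change of Atf3 from 1 h to 8 h was 0.01279 in numbers 1 to 20, and the Xbp1 share in IFN-gamma minus untreated was 0.1407 points over protein-coding transcripts. The cause was not tested. Depth limits genes under about 1 CPM, where a library holds few reads.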
